A study of Mus musculus with 5 samples.

Results

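Heat shock proteins and their DnaJ cochaperones fold new and damaged proteins. This account covers the 77 protein-coding genes, of 22683 genes in the deposited table, whose symbols name a member of the HSP90, HSPA (HSP70), HSPB (small heat shock), HSPD, HSPE, HSPH, DNAJ or CCT families. The families were picked with earlier results of these data known; within them, gene type and symbol alone decided membership. The rule took in 3 HSP90, 13 HSPA, 9 HSPB, 1 HSPD, 1 HSPE, 1 HSPH, 8 CCT and 41 DNAJ genes. Of these, 73 had a normalized count of at least 10 in at least 2 libraries and were tested, whereas Hspa1l, Hspb9, Dnajc6 and Cct8l1 were not.

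RNA was sequenced from quiescent satellite cells, the resting stem cells of skeletal muscle, in 3 libraries from mdx mice and 2 libraries from wild-type mice. The mdx mouse carries a mutation in Dmd, the dystrophin gene, and is a model of Duchenne muscular dystrophy. Each library was made from 10000 to 20000 sorted cells, and the labels name no treatment, age, strain, muscle or sorting gate. Nothing in the labels says that each library had its own animal. The p-values therefore speak of the spread among these libraries, which can be technical.

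In textbook terms, HSP70 proteins bind exposed hydrophobic stretches of a client and release them through cycles of ATP hydrolysis. DNAJ proteins deliver clients and trigger the hydrolysis step, and HSPH proteins and BAG-domain proteins exchange the nucleotide. HSP90 acts later on near-native clients such as kinases and steroid receptors, and the CCT ring encloses actin, tubulin and other clients that arrive from prefoldin. Heat shock factor 1 switches on the inducible members when unfolded proteins accumulate, and the endoplasmic reticulum has its own set under the unfolded protein response. In skeletal muscle these chaperones serve the folding and turnover of contractile proteins.

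Several facts of the whole series touch every comparison. Normalized counts totalled 15930638, 12473348 and 13932270 in mdx and 15217054 and 16825045 in wild type. Dmd, the gene mutated in mdx mice, was at 4642, 4116 and 3700 in mdx and 11826 and 9266 in wild type (limma adjusted p = 0.00099). Transcripts of the Y-linked Ddx3y were at 966, 946 and 827 in mdx and 9 and 0 in wild type, and the X-inactivation transcript Xist was at 0, 0 and 12 in mdx and 30235 and 30176 in wild type. Genotype and sex therefore cannot be told apart. Of 13 satellite cell markers, 3 were higher and 6 lower in mdx, with summed levels of 64959 to 94000 in mdx and 122555 to 136623 in wild type. Pax7, the transcription factor that defines satellite cells, was at 12767, 9751 and 14989 in mdx and 9103 and 7644 in wild type (limma adjusted p = 0.0698).

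Markers of other cells in muscle moved with genotype. For comparison, 14.6% of all tested genes were called higher in mdx and 10.3% lower. Endothelial markers were called higher in 12 of 13 cases and lower in 1, with summed levels of 22547 to 30866 in mdx and 3067 to 3613 in wild type, where Ptprb, Erg, Cldn5 and Emcn were listed at 0. Macrophage markers were higher in 10 of 12 cases, with sums of 10670 to 15829 in mdx and 428 to 675 in wild type, where Mrc1, Itgam, C1qa, C1qb and C1qc were at 0. Mesenchymal progenitor markers were higher in 7 of 8 cases and lower in 1 (sums of 45431 to 81701 in mdx and 10557 to 10615 in wild type, with Cd248 at 0 in wild type). Myofiber markers were higher in 4 of 12 cases and not called in 8, among them Ckm, Myh1, Mylpf, Tnnt3 and Actn3. Their sums (31686 to 73675 in mdx and 4367 to 5961 in wild type) came mostly from Ttn in mdx. Ttn was at 37164, 64744 and 23685 in mdx and 2475 and 2100 in wild type. Pericyte and smooth muscle markers were higher in 4 of 8 cases and lower in 1 (9050 to 10622 in mdx and 3348 to 3781 in wild type). Schwann cell markers were higher in 5 of 6 cases (808 to 1341 in mdx and 356 to 479 in wild type, with S100b at 0 in wild type). Of 2 tested lymphocyte markers, 0 were called by limma and 0 had an unadjusted p under 0.05 (66 to 139 in mdx and 35 to 151 in wild type). The part of these cells in the chaperone values below was not tested, and fewer cells of a type cannot be told apart from less RNA per cell.

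More chaperone genes fell than rose in mdx. Together the 77 members took 1.17, 1.41 and 1.44% of all normalized counts in mdx 1, 2 and 3, against 1.93 and 1.47% in wild type 1 and 2. The highest mdx share lay just below the lowest wild-type share, but this rested on Hspa8, whose boundaries hold small nucleolar RNAs described below. With those subtracted the shares were 1.17, 1.41 and 1.44% in mdx and 1.75 and 1.25% in wild type, and the groups overlapped. Of the 73 tested members, 17 fell in mdx (23.3%) by limma at an adjusted p under 0.05, where 10.3% of all tested genes fell. Another 3 members rose (4.11%), where 14.6% of all tested genes rose, and 53 did not pass. The tested members had higher levels than all tested genes (median of mean normalized counts 652.6 against 158.0). The part of this in the shares was not tested. For 27 members every mdx library was below both of wild type (37.0%, against 23.8% of all tested genes), and for 5 members every one was above both (6.85%, against 28.2%). The median log2 fold change, mdx over wild type, was −0.40 over the tested members and 0.13 over all 18199 tested genes. Against the wild-type mean, the median member stood at −0.44 in mdx 1, −0.45 in mdx 2 and −0.29 in mdx 3, so the shift was present in each mdx library. The counts of calls did depend on the library left out: without mdx 1, 2 or 3, 13, 13 and 11 members were called lower and at most 1 higher. Without wild type 1 or 2, only 1 wild-type library remained, and the median log2 fold change of the tested members was −0.25 and −0.53.

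**Figure D1:**
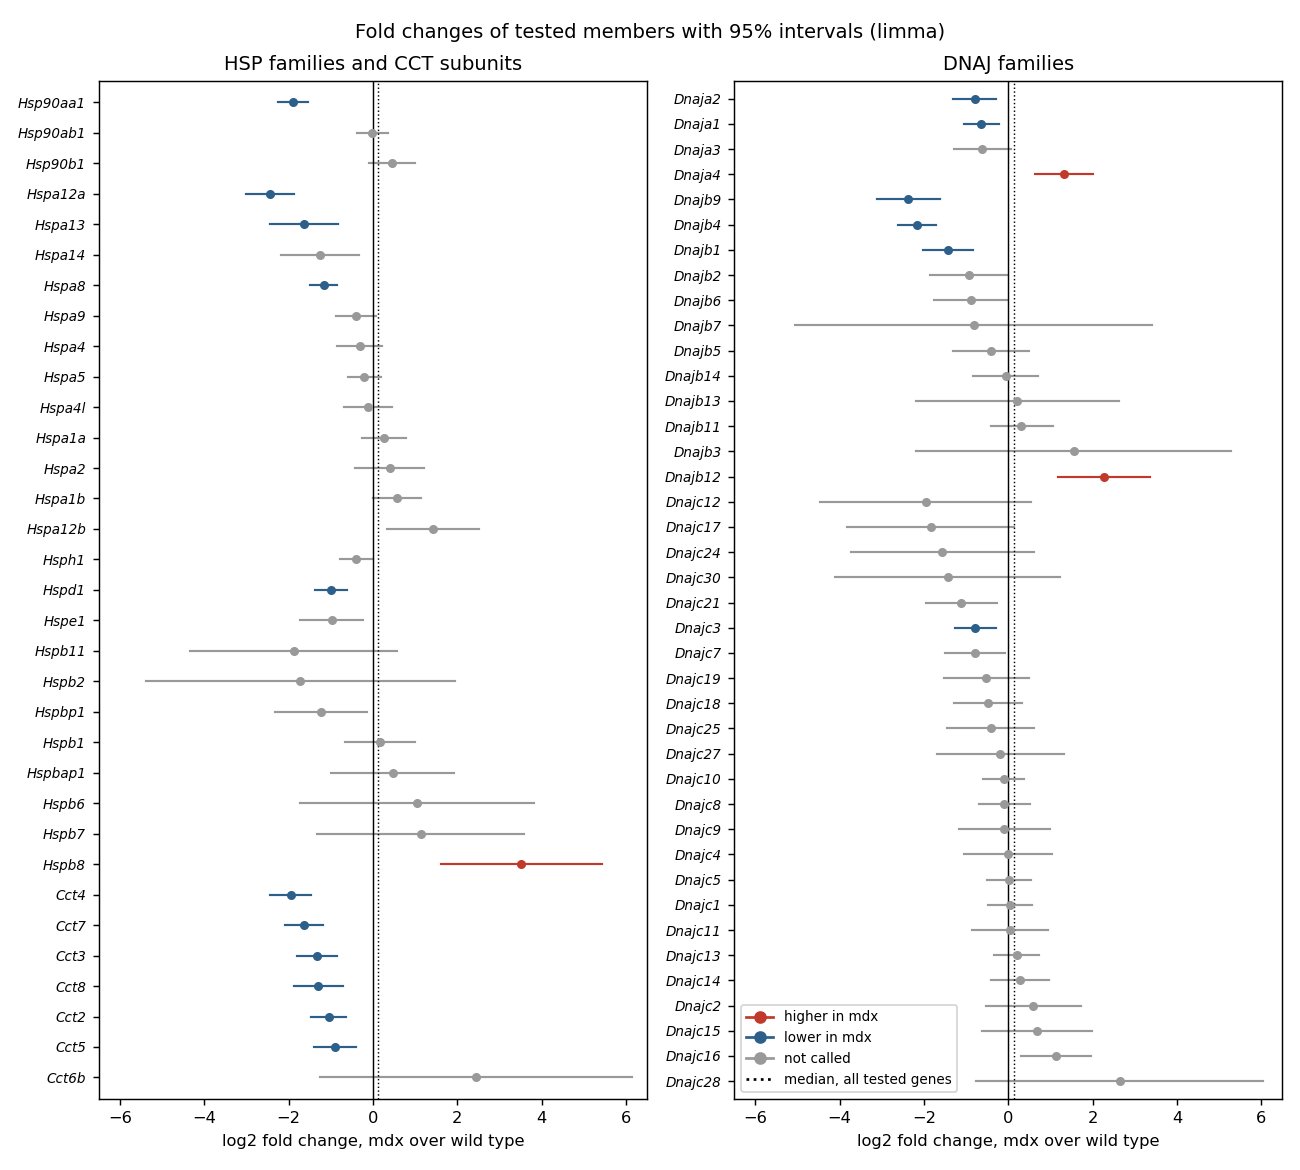
Log2 fold changes (mdx over wild type) of the 73 tested members with 95% CIs from limma, grouped by family, with HSP families and CCT subunits on the left and DNAJ families on the right. Red marks the 3 members called higher in mdx, blue the 17 called lower, grey those not called, and the dotted line the median of all tested genes (0.13).

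The HSP90 genes behaved unequally. Hsp90aa1, which encodes the stress-inducible cytosolic HSP90 alpha (chromosome 12, 110690605 to 110696395, mm10), was at 5100, 5052 and 4471 normalized counts in mdx and 19303 and 16948 in wild type. The groups were far apart, with the highest mdx library well under the lowest wild-type library. Its log2 fold change was −1.89 (95% CI −2.24 to −1.55, SE 0.15, limma adjusted p = 7.39e-05), or 3.72-fold lower in mdx. After quantile normalization, which forces all libraries to a common distribution, the log2 fold change was −1.17 and still called (limma adjusted p = 0.00104).

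Hsp90ab1, which encodes the constitutive HSP90 beta, was at 24671, 23449 and 27062 in mdx and 29287 and 21535 in wild type. Here the groups overlapped, with both extremes among the wild-type libraries, and the log2 fold change of −0.01 (SE 0.16, 95% CI −0.37 to 0.36) did not pass (limma adjusted p = 0.985). This value turned to 0.18 with equal library totals and to 1.05 after quantile normalization, where it was called higher (limma adjusted p = 0.00988). Within a library, the ratio of Hsp90aa1 to Hsp90ab1 does not depend on the scaling of that library. It was 0.207, 0.215 and 0.165 in mdx and 0.659 and 0.787 in wild type, a comparison chosen after the values were seen and given without a test.

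Hsp90b1, which encodes the endoplasmic reticulum form GRP94, was at 6081, 7922 and 5568 in mdx and 6015 and 3691 in wild type, with overlapping groups. It did not pass (log2 fold change 0.45, limma adjusted p = 0.203). Wild type 2 was the lowest library, and without wild type 1, which left 1 wild-type library, the log2 fold change was 0.80. With all libraries, removal of trends with length and GC content called the gene higher (0.94, limma adjusted p = 0.0199), as did quantile normalization (0.91, limma adjusted p = 0.031).

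**Figure D2:**
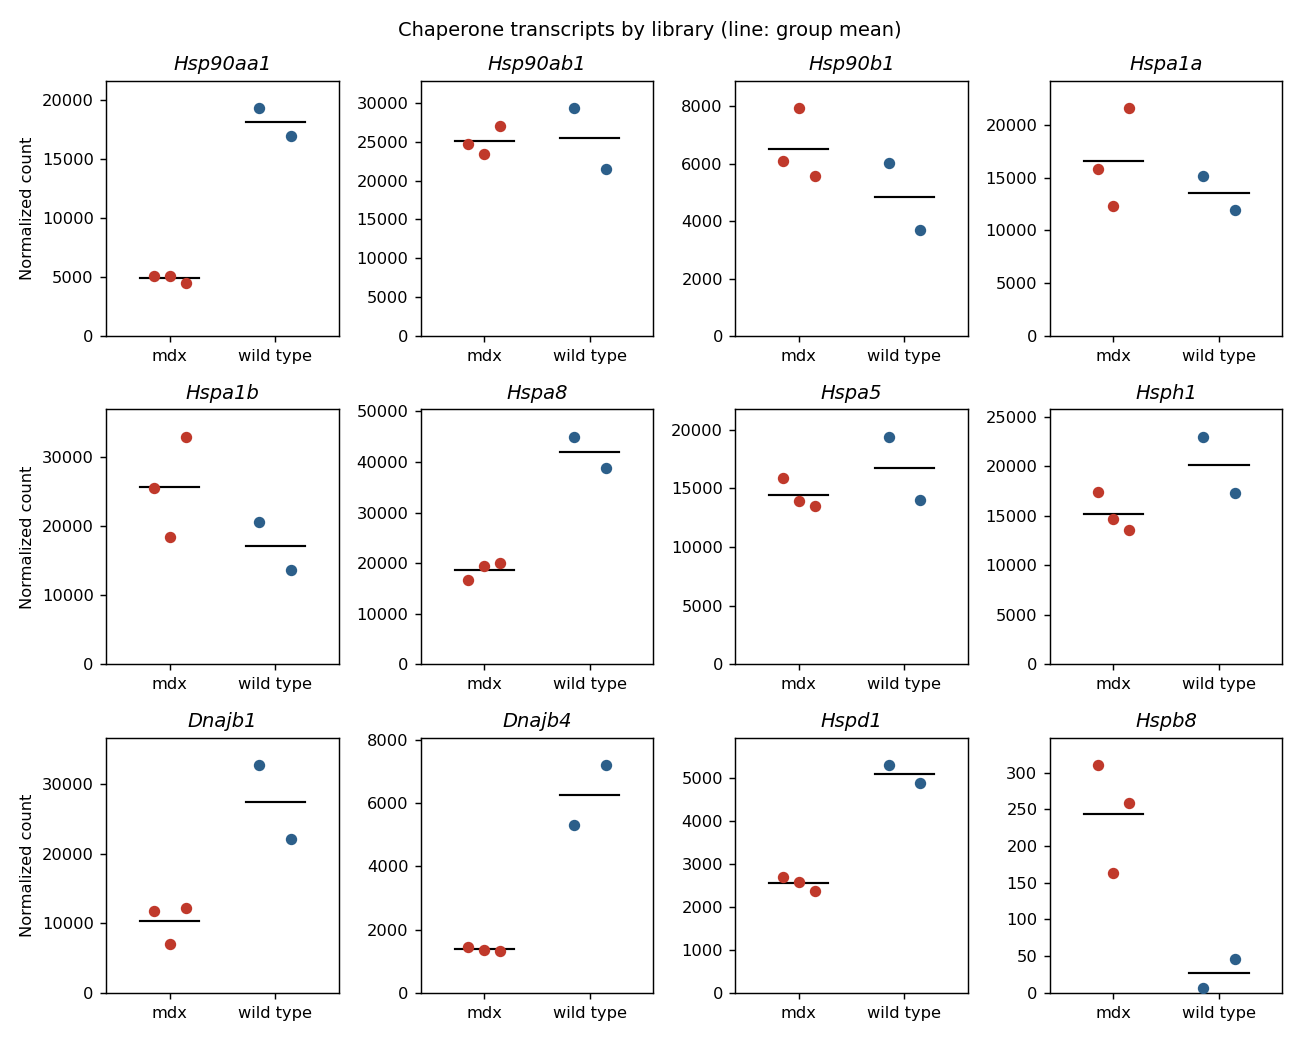
Normalized counts of 12 chaperone genes in each library, on linear axes that start at 0 and differ between genes, with mdx libraries (red) left of wild-type libraries (blue) and the group mean as a line. The mdx libraries lie below both wild-type libraries for Hsp90aa1, Hspa8, Dnajb1, Dnajb4 and Hspd1 and above both for Hspb8, and the groups overlap for Hsp90ab1, Hsp90b1, Hspa1a, Hspa1b, Hspa5 and Hsph1.

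Among the 12 tested HSPA genes, 3 fell in mdx (25.0%, against 10.3% of all tested genes) and 9 did not pass. The stress-inducible pair Hspa1a and Hspa1b lies on chromosome 17 (34969190 to 34972156 and 34956436 to 34959238, minus strand). Their promoters are shown because these neighbouring copies share most of their sequence and their reads: the windows differed at 4 of 300 positions, and 60.3% of 50-base stretches of the Hspa1a transcript and 62.1% of those of Hspa1b also occurred in another annotated transcript. The windows run from 250 bases before to 50 bases after the annotated start (RefSeq, GRCm38.p6), at chr17:34972107-34972406 for Hspa1a and chr17:34959189-34959488 for Hspa1b, both read on the minus strand. Capitals mark GAANNTTC, a pair of inverted GAA units of the kind that heat shock factors bind, which starts 104 bases before the start in each.
Hspa1a: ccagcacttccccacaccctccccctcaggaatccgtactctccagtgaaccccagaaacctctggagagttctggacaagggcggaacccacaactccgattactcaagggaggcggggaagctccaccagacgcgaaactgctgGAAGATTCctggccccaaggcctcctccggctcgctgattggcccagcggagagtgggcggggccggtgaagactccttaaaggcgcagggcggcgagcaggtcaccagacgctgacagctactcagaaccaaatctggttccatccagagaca
Hspa1b: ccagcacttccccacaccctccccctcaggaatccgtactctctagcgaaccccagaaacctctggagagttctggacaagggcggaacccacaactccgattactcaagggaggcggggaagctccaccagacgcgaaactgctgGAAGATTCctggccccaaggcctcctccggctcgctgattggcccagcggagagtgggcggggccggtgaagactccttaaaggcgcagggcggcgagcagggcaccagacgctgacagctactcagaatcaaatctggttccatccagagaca

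Hspa1a was at 15811, 12304 and 21562 in mdx and 15200 and 11911 in wild type. Hspa1b was at 25498, 18536 and 32985 in mdx and 20657 and 13658 in wild type. For both genes mdx 3 was the highest library and wild type 2 the lowest, and the groups overlapped. Log2 fold changes were 0.26 for Hspa1a (limma adjusted p = 0.434) and 0.57 for Hspa1b (limma adjusted p = 0.132), so neither was called, and the direction of Hspa1a turned to −0.32 after length and GC correction. Because reads can be assigned to either copy, the sum of both is the safer quantity: it was 41309, 30840 and 54547 in mdx and 35857 and 25569 in wild type. The summed value, added after the data were seen, was not called either (log2 fold change 0.44, limma adjusted p = 0.208). Quantile normalization called Hspa1b (1.61, limma adjusted p = 0.00212) and Hspa1a (1.22, limma adjusted p = 0.0041) higher. Without wild type 1, which left 1 wild-type library, the log2 fold change of Hspa1b was 0.87.

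Hspa8, which encodes the constitutive HSC70 (chromosome 9, 40800984 to 40805200), was at 16622, 19384 and 20089 in mdx and 44956 and 38858 in wild type. Every mdx library lay below the lower wild-type library, and the log2 fold change was −1.17 (95% CI −1.49 to −0.84, SE 0.14, limma adjusted p = 0.000641). Within the boundaries of Hspa8 lie the small nucleolar RNAs Snord14c, Snord14d and Snord14e on the same strand, whose summed level was 391, 323 and 557 in mdx and 26045 and 37663 in wild type. The sources used here do not say how reads in these stretches were assigned. Subtracting the 3 snoRNA values left 16231, 19061 and 19532 in mdx and 18911 and 1195 in wild type. The log2 fold change then turned to 1.94 and was not called (limma adjusted p = 0.205), so the fall of the HSC70 message cannot be told apart from that of the snoRNAs. Quantile normalization also removed the difference (0.01, limma adjusted p = 0.975).

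Less familiar HSPA members differed by more. Hspa12a, which encodes an atypical and distant HSP70 relative (chromosome 19, 58795751 to 58860984), was at 388, 372 and 366 in mdx and 1785 and 2306 in wild type. The 3 mdx libraries were nearly equal, and the log2 fold change of −2.43 (SE 0.25, limma adjusted p = 0.000253) was the lowest of the 73 tested members. Hspa13, which encodes a microsomal HSP70-like ATPase, was at 348, 836 and 631 in mdx and 1666 and 1900 in wild type. It fell with a log2 fold change of −1.64 (SE 0.36, limma adjusted p = 0.0107), a call lost without mdx 3 (limma adjusted p = 0.066). Hspa14, a ribosome-associated HSP70, was at 241, 166 and 144 in mdx and 408 and 456 in wild type and did not pass (limma adjusted p = 0.0546). Hspa12b, an HSP70 relative known from endothelial cells, was at 522, 432 and 621 in mdx and 111 and 328 in wild type. All mdx libraries were above both wild-type libraries, but the log2 fold change of 1.43 did not pass (limma adjusted p = 0.0583). Of 13 endothelial markers, 12 also had every mdx library above and 1 had every one below. Their part in the value of Hspa12b was not tested.

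The abundant organelle HSP70 genes Hspa5 and Hspa9 were not called, unlike Hspa13. Hspa5, which encodes BiP of the endoplasmic reticulum, was at 15871, 13958 and 13458 in mdx and 19386 and 14013 in wild type, with overlapping groups. It did not pass (log2 fold change −0.20, 95% CI −0.59 to 0.20, limma adjusted p = 0.435), and its direction turned to 0.83 and a call of higher after quantile normalization (limma adjusted p = 0.0121). Hspa9, which encodes mortalin of the mitochondrion, was at 3231, 4847 and 3512 in mdx and 4600 and 5430 in wild type and did not pass (log2 fold change −0.39, limma adjusted p = 0.206). The groups overlapped through mdx 2 alone.

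Hsph1, which encodes the HSP110 nucleotide exchange factor, was at 17397, 14659 and 13561 in mdx and 22970 and 17302 in wild type. The lower wild-type library lay just inside the mdx range, and the log2 fold change of −0.40 did not pass (limma adjusted p = 0.128). Without wild type 2, which left 1 wild-type library, the log2 fold change of Hsph1 was −0.60. Quantile normalization turned it to 0.65 and called the gene higher (limma adjusted p = 0.0314). Its relatives Hspa4 and Hspa4l, HSP110-type exchange factors despite their symbols, were not called (log2 fold changes −0.31 and −0.11, limma adjusted p = 0.357 and 0.778). Hspa2, known best from the testis, was at 303, 441 and 492 in mdx and 282 and 330 in wild type and was not called (limma adjusted p = 0.445).

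Hspd1 and Hspe1 encode the mitochondrial chaperonin HSP60 and its lid HSP10, and are transcribed in opposite directions from adjoining starts on chromosome 1 (Hspd1 at 55077835 to 55088024 on the minus strand, Hspe1 at 55088132 to 55091307 on the plus strand). A promoter window is shown because it lies where both genes begin and holds the longest run of heat shock units printed here. It is the RefSeq window of Hspe1 (GRCm38.p6, chr1:55087898-55088197, plus strand), and the run starts 89 bases before its start. Capitals mark the alternating TTC and GAA units, spaced by 2 bases; an Hspd1 window on the other strand holds the same run.
Hspe1: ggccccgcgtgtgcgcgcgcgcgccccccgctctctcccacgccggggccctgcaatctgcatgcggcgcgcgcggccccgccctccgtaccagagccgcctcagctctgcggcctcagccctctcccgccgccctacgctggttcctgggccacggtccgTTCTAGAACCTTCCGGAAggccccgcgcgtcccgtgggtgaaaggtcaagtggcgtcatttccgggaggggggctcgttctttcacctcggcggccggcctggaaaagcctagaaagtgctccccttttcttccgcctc

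Hspd1 was at 2703, 2583 and 2379 in mdx and 5301 and 4878 in wild type. All mdx libraries were below both wild-type libraries, and the log2 fold change was −0.99 (95% CI −1.38 to −0.61, SE 0.17, limma adjusted p = 0.00326). Hspe1 was at 771, 378 and 573 in mdx and 1027 and 1161 in wild type, a pattern of the same direction with more spread in mdx. Its log2 fold change of −0.98 did not pass (SE 0.33, limma adjusted p = 0.0575). Without wild type 1, which left 1 wild-type library, the value was −1.07. With all libraries it turned to 0.05 after length and GC correction. Near-identical processed copies of these genes exist: 44.6% of 50-base stretches of the Hspd1 transcript and 7.65% of those of Hspe1 also occurred in another annotated transcript. The share was 58.4% for Hsp90aa1, 51.0% for Hspa8 and 51.4% for Hspb1, so how reads were split between these genes and their copies limits all of these values.

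Most CCT subunits fell. The ring has 8 different subunits, named CCT1 to CCT8, and Cct2, Cct3, Cct4, Cct5, Cct7 and Cct8 were called lower in mdx, 6 of 7 tested members (85.7%, against 10.3% of all tested genes), with log2 fold changes from −1.95 to −0.90. Cct4 (chromosome 11, 22990519 to 23003780) was at 1274, 1787 and 1369 in mdx and 4994 and 6373 in wild type, or 3.86-fold lower (log2 fold change −1.95, SE 0.22, limma adjusted p = 0.000373). Cct7 was at 1450, 1520 and 1492 in mdx and 5392 and 3983 in wild type (−1.64, SE 0.20, limma adjusted p = 0.000558). The mdx libraries of Cct7 agreed closely, and for all 6 subunits the highest mdx library stayed below the lowest wild-type library.

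Cct3 was at 1530, 1897 and 1487 in mdx and 4634 and 3595 in wild type (−1.32, limma adjusted p = 0.00217). Cct2 was at 1968, 2358 and 2515 in mdx and 4727 and 4693 in wild type (−1.05, limma adjusted p = 0.00364). Cct8 was at 1358, 2339 and 2013 in mdx and 4032 and 5176 in wild type (−1.30, limma adjusted p = 0.00662). Library mdx 1 was the lowest of Cct2 and Cct8, and the call for Cct8 was lost without mdx 3 (limma adjusted p = 0.0522) and when trends with length and GC content were removed (−0.68, limma adjusted p = 0.0781). Cct5, at 2570, 2956 and 3104 in mdx and 4342 and 6615 in wild type, had the smallest fall (−0.90, limma adjusted p = 0.016). Its call was lost without mdx 1, 2 or 3 or wild type 2 (limma adjusted p = 0.0668 to 0.0855). It was also lost with equal library totals, after quantile normalization and with length and GC trends removed (limma adjusted p = 0.0746, 0.071 and 0.0556).

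The other ring subunits lay outside the symbol rule or type, and their values were looked up after those of the members were seen. Tcp1, which encodes CCT1, was at 1760, 3183 and 2275 in mdx and 3992 and 3842 in wild type (−0.75, limma adjusted p = 0.0576). Cct6a, whose file entry is not typed as protein-coding, was at 2264, 3310 and 2937 in mdx and 4190 and 4330 in wild type (−0.60, limma adjusted p = 0.0583). Neither passed, although each was lower in every mdx library than in either wild-type library. Of the isoforms known from testis in mammals, Cct6b was at 25, 0 and 22 in mdx and 0 in each wild-type library and was not called, and Cct8l1 reached 36 in 1 wild-type library only. The median log2 fold change of the tested CCT members was −1.30, or −1.31 over the 6 above 0 in both genotypes.

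**Figure D3:**
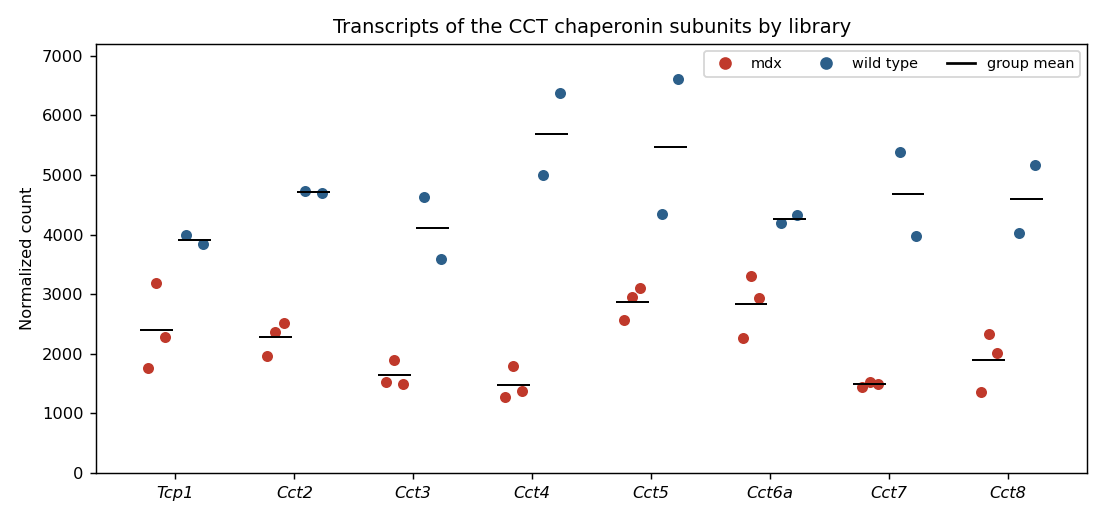
Normalized counts of the 8 CCT ring subunits in each library on a linear axis, with mdx (red) left of wild type (blue) for each gene and group means as lines. Tcp1, which encodes CCT1, lies outside the symbol rule, and Cct6a is not typed as protein-coding, so neither is a member. In every subunit the 3 mdx libraries lie under the wild-type pair, with the smallest distance in Tcp1.

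Genes that work before the ring were lower too. Of 10 tested prefoldin, phosducin-like and related CCT partners, including Tcp1, 6 fell (60.0%, against 10.3% of all tested genes) and 4 did not pass. All 10 had a log2 fold change below 0, and their median was −1.39. Pfdn5, which encodes a prefoldin subunit, was at 558, 291 and 614 in mdx and 2854 and 3858 in wild type (−2.83, limma adjusted p = 0.00056). Pdcl3, which encodes a phosducin-like cofactor of CCT, was at 103, 47 and 56 in mdx and 909 and 985 in wild type (−3.83, limma adjusted p = 0.000848). Both genes were separated between genotypes by far more than the spread within each.

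Of 8 tested HSPB members, 1 rose (12.5%, against 14.6% of all tested genes), and Hspb1 had the highest levels of them. Hspb8, whose product works with BAG3 in the disposal of damaged muscle proteins (chromosome 5, 116408491 to 116422864), was at 310, 163 and 259 in mdx and 7 and 46 in wild type. The groups did not overlap, but both levels were low, and the log2 fold change of 3.52 had a wide interval (95% CI 1.61 to 5.42, SE 0.84, limma adjusted p = 0.0162). It was 2.31 with wild type 1 left out and 4.72 with wild type 2 left out, and the call was lost without mdx 1, 2 or 3 (limma adjusted p = 0.0932, 0.063 and 0.0939). Of the 12 myofiber markers, 4 were called higher in the same mdx libraries and 8 were not called, and their part in the value of Hspb8 was not tested.

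Hspb1, which encodes HSP27, was at 754, 484 and 1115 in mdx and 773 and 561 in wild type. Its groups overlapped, and it was not called (log2 fold change 0.17, limma adjusted p = 0.773); its direction turned with the setting, as after length and GC correction (−0.16). Hspb2, Hspb6 and Hspb7, known from heart and skeletal muscle, had between 0 and 126 normalized counts in any library and were not called. Hspb9 reached 49 in mdx 2 and was at 0 in the other libraries. The remaining HSPB symbols belong to other functions: Hspb11, an intraflagellar transport protein, was at 25, 8 and 51 in mdx and 49 and 155 in wild type, and Hspbp1, an HSP70 exchange factor, was at 204, 142 and 109 in mdx and 276 and 434 in wild type. Neither was called (limma adjusted p = 0.235 and 0.0937), nor was Hspbap1, which encodes an HSP27-associated protein (limma adjusted p = 0.634). The small heat shock crystallin Cryab, a partner gene outside the rule, was at 779, 425 and 742 in mdx and 896 and 893 in wild type and did not pass (−0.51, limma adjusted p = 0.269).

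Of 40 tested DNAJ genes, 6 fell in mdx (15%, against 10.3% of all tested genes), 2 rose (5.0%, against 14.6%) and 32 did not pass. The share that fell was thus near that of all genes. By class, 2 of 4 DNAJA, 3 of 12 DNAJB (25.0%) and 1 of 24 tested DNAJC genes (4.17%, below the share of all genes) fell, with medians of −0.63, −0.61 and −0.10 (0.09 for DNAJC with equal library totals). DNAJA and DNAJB proteins carry their J domain at the start of the protein and are general partners of HSP70, whereas DNAJC proteins share little beyond the J domain. The lower median of the classes that serve HSP70 broadly is a description without a test.

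Dnajb1, which encodes HSP40, the main partner of inducible HSP70, was at 11760, 7010 and 12193 in mdx and 32703 and 22142 in wild type. Per kilobase it had the highest mean of the DNAJ genes in both genotypes, and mdx 2 was its lowest library. Its log2 fold change was −1.43 (95% CI −2.02 to −0.83, SE 0.26, limma adjusted p = 0.00486), or 2.69-fold lower, and it was not called after quantile normalization (−0.45, limma adjusted p = 0.317). The ratio of Dnajb1 to the sum of Hspa1a and Hspa1b, chosen after the values were seen, was 0.285, 0.227 and 0.224 in mdx and 0.912 and 0.866 in wild type. It was lower in every mdx library than in either wild-type library. The ratio of Hspa8 to the same sum was 0.402, 0.629 and 0.368 in mdx and 1.25 and 1.52 in wild type. With the snoRNA values subtracted from Hspa8 it was 0.393, 0.618 and 0.358 in mdx and 0.527 and 0.0467 in wild type, so the order turned against wild type 2 and the groups overlapped.

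**Figure D4:**
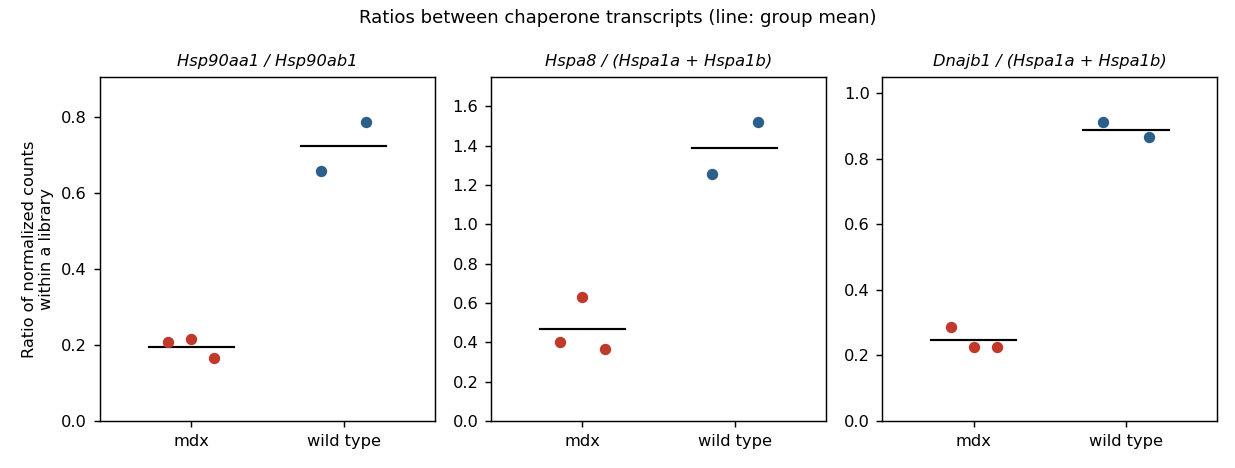
Ratios of normalized counts within each library for Hsp90aa1 over Hsp90ab1, Hspa8 over Hspa1a plus Hspa1b, and Dnajb1 over Hspa1a plus Hspa1b, on linear axes from 0, with mdx left of wild type and group means as lines. The mdx libraries lie at 0.165 to 0.215, 0.368 to 0.629 and 0.224 to 0.285, below the wild-type libraries in each panel, but with the snoRNA values subtracted from Hspa8 the wild-type ratios of the middle panel were 0.527 and 0.0467; the ratios were chosen after the values were seen.

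Dnajb4, which encodes a close relative of HSP40 (chromosome 3, 152183955 to 152210083, minus strand), had the smallest p of the DNAJ genes. It was at 1460, 1341 and 1330 in mdx and 5312 and 7188 in wild type, or 4.49-fold lower. The mdx libraries were nearly equal, and the log2 fold change was −2.17 (95% CI −2.61 to −1.72, SE 0.20, limma adjusted p = 0.000131). A RefSeq promoter window of Dnajb4 (chr3:152210034-152210333, minus strand) holds no pair of heat shock units, like the windows of Dnajb1. Another window of Dnajb4 is shown because it holds such a pair (GRCm38.p6, chr3:152193796-152194095, minus strand). Capitals mark TTCNNGAA, which starts 14 bases before the start.
Dnajb4: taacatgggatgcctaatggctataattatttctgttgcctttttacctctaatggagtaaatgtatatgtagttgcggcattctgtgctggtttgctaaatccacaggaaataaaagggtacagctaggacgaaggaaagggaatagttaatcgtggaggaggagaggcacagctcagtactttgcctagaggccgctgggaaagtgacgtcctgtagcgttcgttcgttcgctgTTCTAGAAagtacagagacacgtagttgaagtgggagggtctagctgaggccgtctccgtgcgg

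Among J proteins of the endoplasmic reticulum, members moved in both directions. Dnajb9, which encodes ERdj4, a partner of BiP, was at 501, 526 and 365 in mdx and 1703 and 3321 in wild type. The wild-type libraries differed widely but both lay above mdx (log2 fold change −2.37, SE 0.33, limma adjusted p = 0.00115; −1.78 after length and GC correction, still called). Dnajc3, which encodes the BiP cochaperone p58IPK, was at 1524, 1279 and 1137 in mdx and 2451 and 2036 in wild type (−0.78, limma adjusted p = 0.0302). Its call was lost without mdx 1, 2 or 3 or wild type 1 (limma adjusted p = 0.0506 to 0.0941), with equal library totals (limma adjusted p = 0.13) and with length and GC trends removed (limma adjusted p = 0.0503). Dnajc10, which encodes the disulfide reductase ERdj5 and was the DNAJC gene with the highest level per kilobase, was at 1756, 1862 and 1943 in mdx and 2372 and 1685 in wild type. It did not pass (−0.11, limma adjusted p = 0.744) and turned to 0.08 with equal library totals.

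Dnajb12, which encodes a J protein anchored in the membrane of the endoplasmic reticulum (chromosome 10, 59879556 to 59899302), rose. It was at 854, 867 and 1043 in mdx and 102 and 347 in wild type, with the spread on the wild-type side. The log2 fold change was 2.27 (95% CI 1.19 to 3.35, SE 0.48, limma adjusted p = 0.00893), but 1.40 with wild type 1 left out and 3.14 with wild type 2 left out. Leaving out mdx 1, 2 or 3 removed the call (limma adjusted p = 0.0656, 0.0642 and 0.0779). Dnajc16, another membrane J protein, was at 505, 571 and 443 in mdx and 297 and 177 in wild type and did not pass (1.13, limma adjusted p = 0.052).

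In the DNAJA class, the general HSP70 partners Dnaja1 and Dnaja2 fell. Dnaja1 was at 1555, 1614 and 1766 in mdx and 2499 and 2638 in wild type (−0.64, limma adjusted p = 0.0334). Dnaja2 was at 1360, 1301 and 1049 in mdx and 1858 and 2482 in wild type (−0.80, limma adjusted p = 0.0316). The groups did not overlap, but the falls were small and the calls weak: that of Dnaja1 was lost without any 1 of the 5 libraries (limma adjusted p = 0.0552 to 0.112), and that of Dnaja2 without mdx 1, 2 or 3 or wild type 2 (limma adjusted p = 0.072 to 0.151). Dnaja1 was not called either with equal library totals, after quantile normalization or with length and GC trends removed (limma adjusted p = 0.21, 0.0693 and 0.0619). Dnaja2 was not called with equal totals (limma adjusted p = 0.118), and with length and GC trends removed its log2 fold change was −0.26 (limma adjusted p = 0.437). Dnaja4, a further member of the class, rose, at 984, 705 and 886 in mdx and 408 and 280 in wild type (1.33, SE 0.30, limma adjusted p = 0.0135). Its call was lost without mdx 1 or mdx 3 (limma adjusted p = 0.0676 and 0.0703). Opposite-strand genes overlap the annotated ends of Dnaja1 (Smu1, 608 bases) and Dnaja4 (Wdr61, 1581 bases), as they do those of Cct7 (Pradc1, 457 bases), Cct8 (Usp16, 192 bases) and Hspb2 (Cryab, 1030 bases). The library kit keeps strand, and the sources used here do not give the strand setting of the counting. The mitochondrial Dnaja3 was at 477, 610 and 557 in mdx and 1048 and 668 in wild type and did not pass (limma adjusted p = 0.162).

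Of the more specialised DNAJC genes, 23 of 24 tested were not called. Dnajc13, an endosomal J protein, was at 3659, 4331 and 2654 in mdx and 2751 and 3335 in wild type (0.20, limma adjusted p = 0.565; −0.06 after length and GC correction). Dnajc5, which encodes a J protein of secretory vesicles, was at 1578, 1115 and 1167 in mdx and 1208 and 1313 in wild type (0.01, 95% CI −0.51 to 0.54, limma adjusted p = 0.975; −0.40 after length and GC correction). In each the groups overlapped and the interval included 0. Dnajc21, a J protein of ribosome assembly, was at 370, 430 and 215 in mdx and 682 and 722 in wild type, without overlap, and missed the threshold (−1.11, limma adjusted p = 0.0583). Dnajb6 and Dnajb2, which suppress protein aggregation, were below wild type in all mdx libraries but not called (−0.89 and −0.93, limma adjusted p = 0.121 and 0.128). Dnajc12, Dnajc17, Dnajc24, Dnajc28, Dnajc30, Dnajb3, Dnajb7 and Dnajb13 were too low or too variable for their intervals to exclude 0.

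Grouped by role, the list of cytosolic or inducible chaperones had 6 falls (42.9%, against 10.3% of all tested genes) and 1 rise (7.14%, against 14.6%). It held 14 tested genes, with a median of −0.52, among them the mitochondrial Hspd1 and Hspe1, which the mitochondrial list also holds. The falls include Hspa8 and Hspd1. After quantile normalization that set had 3 falls, 5 rises and a median of −0.02. The mitochondrial members had 1 fall, again Hspd1, among 8 (12.5%, near the 10.3% of all tested genes), with a median of −0.57. The endoplasmic reticulum set had 3 falls (25.0%) and 1 rise (8.33%) among 12, with a median of −0.09, which turned to 0.10 with equal library totals and 0.04 after quantile normalization. The neuronal and clathrin-related members Dnajb2, Dnajb6, Dnajc5 and Dnajc13 had 0 limma calls among 4, with 2 at an unadjusted p under 0.05.

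Per kilobase of transcript, Hspa8, Hsp90ab1, Hspa1b and Dnajb1 were among the members with the highest levels. Hspa8 had 5921 normalized counts per kilobase in mdx and 13270 in wild type, Hsp90ab1 had 9945 in mdx and 10084 in wild type, and Hspa1b had 9159 in mdx and 6121 in wild type. Dnajb1 was at 3445 per kilobase in mdx and 9153 in wild type. As deposited, Hsp90ab1 led in mdx and Hspa8 in wild type. With the snoRNA values subtracted, Hspa8 was at 5787 per kilobase in mdx and 3183 in wild type, under Hsp90ab1 in both genotypes. That wild-type mean rests on unlike libraries, with 18911 normalized counts left in wild type 1 and 1195 in wild type 2. Only wild type 2 lay below the mdx range of 16231 to 19532. Among the 28 tested members with a mean of at least 1000, the median range between libraries of the same genotype was 0.37 on the log2 scale in mdx and 0.37 in wild type. A range grows with the number of libraries, 3 in mdx and 2 in wild type, so these values do not show equal spread. Hsp90aa1, Cct4, Dnajb4, Dnajb9 and Hspa12a differed between genotypes by several times that median range. The wild-type libraries of Dnajb9 were themselves further apart than that median, at 1703 and 3321.

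The regulators and partners of these chaperones gave a mixed picture. Of 70 tested partner genes, 19 fell (27.1%, against 10.3% of all tested genes) and 7 rose (10.0%, against 14.6%), with a median of −0.38, or −0.44 over the 69 above 0 in both genotypes. The heat shock factors Hsf1, Hsf2 and Hsf4 were not called, with Hsf1 at 713, 356 and 621 in mdx and 552 and 671 in wild type (limma adjusted p = 0.762). Hsbp1, which encodes a small binding protein that restrains HSF1, fell, at 426, 234 and 401 in mdx and 1705 and 1108 in wild type (−2.00, limma adjusted p = 0.00411; −1.33 after length and GC correction). The groups of Hsbp1 did not overlap, whereas those of Hsf1 did.

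HSP90 cochaperones had 6 falls (27.3%, against 10.3% of all tested genes) and 1 rise (4.55%, against 14.6%) among 22 tested. Their median was −0.70, or −0.71 without Unc45b. Stip1, which encodes HOP, the bridge between HSP70 and HSP90, was at 1063, 1023 and 761 in mdx and 3007 and 3251 in wild type (−1.73, limma adjusted p = 0.000778). The 1 rise was Unc45b, a myosin chaperone of muscle, at 147, 180 and 110 in mdx and listed at 0 in both wild-type libraries (limma adjusted p = 0.00296). Of 12 myofiber markers, 4 were also called higher and 8 were not called, and the part of those cells was not tested.

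HSP70 exchange factors and clearance partners had 3 rises (27.3%, against 14.6% of all tested genes) and 1 fall (9.09%, near the 10.3% of all tested genes) among 11. Their median was 0.33. Bag3, the partner of HSPB8, was at 3860, 3431 and 4165 in mdx and 1735 and 1257 in wild type (1.36, limma adjusted p = 0.00178). Stub1, which encodes the ubiquitin ligase CHIP, was at 299, 509 and 395 in mdx and 43 and 72 in wild type (2.77, limma adjusted p = 0.00438; 2.11 after length and GC correction). In both genes every mdx library lay above both wild-type libraries. Bag6 also rose and Grpel1, a mitochondrial exchange factor, fell (0.90 and −1.64, limma adjusted p = 0.0114 and 0.0112, both chosen after their values were seen). After length and GC correction the value of Bag6 was 0.00 (limma adjusted p = 0.996), so its rise depends on that setting, whereas Grpel1 was still called (−1.47, limma adjusted p = 0.023).

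Among J proteins without a DNAJ symbol, Gak, an auxilin for the uncoating of clathrin vesicles, rose. It was at 1635, 1466 and 1862 in mdx and 1113 and 931 in wild type (0.69, limma adjusted p = 0.046), a call lost without mdx 1, 2 or 3 or wild type 2 (limma adjusted p = 0.0722 to 0.167) and with length and GC trends removed (0.32, limma adjusted p = 0.299). All mdx libraries were above both wild-type libraries. Sec63 and Hscb were not called (limma adjusted p = 0.774 and 0.98).

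Other folding genes of the endoplasmic reticulum had 5 falls (27.8%, against 10.3% of all tested genes) and 1 rise (5.56%, against 14.6%) among 18. Their median was 0.01 and turned to −0.06 after length and GC correction. Xbp1, a transcription factor of the unfolded protein response, was at 1189, 1210 and 1490 in mdx and 2865 and 3057 in wild type (−1.20, limma adjusted p = 0.00303). Herpud1, which acts in the removal of misfolded proteins from this compartment, was at 1078, 815 and 1126 in mdx and 2227 and 1912 in wild type (−1.05, limma adjusted p = 0.0111). Both fell, as Dnajb9 did, whereas Calr, encoding the lectin chaperone calreticulin and chosen after its values were seen, rose (0.70, limma adjusted p = 0.0291).

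A list of 20 rapid-response transcripts, known to change within a short time of stimulation, was set beside the chaperones. Of these, 10 fell and 3 rose, with a median of −0.69 (−0.06 after quantile normalization). Zfp36, which encodes an mRNA decay factor, was at 2940, 2231 and 2270 in mdx and 8804 and 8013 in wild type (−1.77, limma adjusted p = 0.000272). Atf3, a stress-responsive transcription factor, was at 1434, 1743 and 1606 in mdx and 6001 and 5019 in wild type (−1.79, limma adjusted p = 0.000274). These groups did not overlap. Jun, Ier5 and Egr3, chosen after their values were seen, rose (1.05, 2.36 and 1.31, limma adjusted p = 0.00914, 0.000408 and 0.011). The part of this list in the chaperone values was not tested.

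The promoter table held 64 of the 77 members and had no window for the others, among them Hsp90aa1, Hsp90ab1, Hspa8 and Cct4. GAANNTTC or TTCNNGAA, searched on both strands, occurred in at least 1 window of 17 of these 64 (26.6%), against 4587 of 27025 genes of the table (17.0%). A run of 3 alternating units occurred in Dnajb6, Hspd1, Hspe1 and Hsph1 (6.25%), against 179 genes (0.662%). Of those 4 genes, only Hspd1 was called by limma. Among members with a pair of units, Hspb8 and Dnaja4 rose and Cct2, Cct5, Dnaja1, Dnajb4 and Hspd1 fell. The other 10 were not called or not tested, so both directions occurred among matched members. For comparison, 23.3% of all tested members fell and 4.11% rose, against 10.3% and 14.6% of all tested genes. A match is a description of letters, not of a binding site.

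The scaling of the libraries moved the members in different ways. As deposited, the fold changes of all tested genes had a median of 0.13 (log2). It was 0.31 with equal library totals, 0.20 after length and GC correction and 0.00 after quantile normalization. The tested members had medians of −0.40, −0.21, −0.32 and −0.22 in the same order, below that of all tested genes in each case. Calls among members were 3 higher and 17 lower as deposited, 5 and 13 with equal totals, 4 and 14 after length and GC correction, and 11 and 13 after quantile normalization. Equal totals moved no member by more than 0.21, and length and GC correction moved Hspe1 most, by 1.03. Quantile normalization moved Hsp90ab1, Hspa1a, Hspa1b, Hspa5, Hspa8, Hsph1 and Dnajb1 upward by at least 0.96 on the log2 scale, and these are the 7 members with the highest normalized counts. Cct4, Cct7, Dnajb4, Dnajb9, Hsp90aa1 and Hspa12a were called lower under all 14 alternatives, the highest limma adjusted p being 0.0346 for Cct7.

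**Figure D5:**
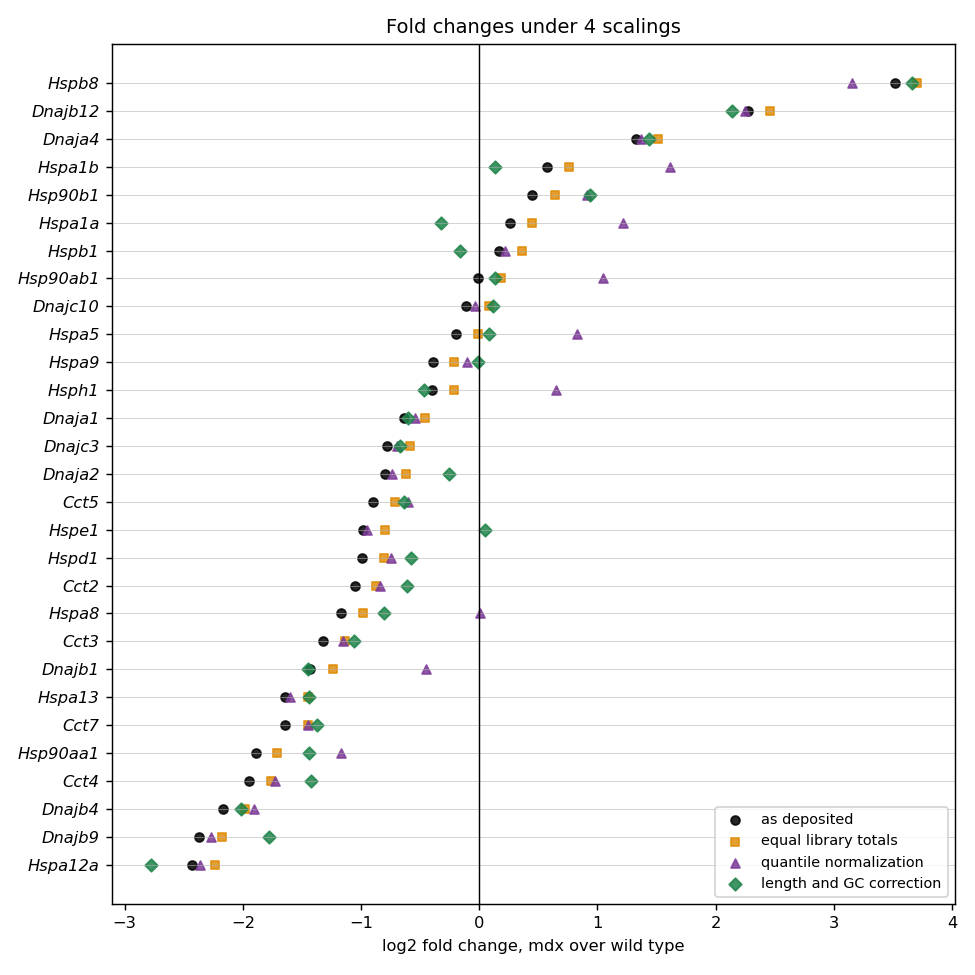
Log2 fold changes (mdx over wild type) of 29 members under 4 scalings: as deposited (black circles), equal library totals (orange squares), quantile normalization (purple triangles) and length and GC correction (green diamonds). The most abundant members move to the right under quantile normalization (Hspa8 to 0.01, Hsp90ab1 to 1.05), whereas Hspa12a, Dnajb9, Dnajb4, Cct4, Hsp90aa1 and Cct7 stay at −1.17 or lower in every scaling.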

How the data were processed

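Total RNA of sorted satellite cells was sequenced with a stranded kit for low input, per the labels' protocols. The submitters' processing notes name STAR 2.6.1d, featureCounts 1.6.3, DESeq2 1.18.1 and mm10. The deposited values are a score, the authors' normalized count, rounded to whole numbers: the median ratio to gene means was 0.9996 to 1.0004 in every library, and mdx 1 lacked 6 of the integers between 1 and 30. A count model was therefore not used. Depth per library is known only on this scale, which limits the precision of low values.

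Values were tested as log2(normalized count + 2) with limma 3.58.1 in R 4.3.3, with genotype as the only term, a mean trend and robust moderation. Genes at 10 or more in at least 2 libraries were tested (18199 of 22683). P-values are two-sided and Benjamini-Hochberg adjusted across the tested genes and called under 0.05. The added 2 understates the folds of low genes. Fold changes are relative to the typical gene. The test was checked on simulated data.

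The member families and the gene lists were chosen with earlier results of these data known; within the families, members follow from gene type and symbol. Members with values given are those called (up to 4 per HSP or CCT family and 6 per direction among DNAJ genes, by p), the highest member per kilobase in each family, and 14 well-known chaperones, with others named from the complete list. Of each partner list up to 2 called genes are named, and 1 result that qualifies is not reported here. Transcript lengths came from GENCODE M21, where 52 of 77 members had the same coordinates, and promoters from RefSeq (GRCm38.p6). Protein sequences were not used here. The 14 alternatives covered pseudocounts, filters, scalings, length and GC content, a replicate block, moderation and single libraries left out; 2 more, on Hspa8 and Hspa1a, were chosen after seeing the data.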

Additional observations from a re-analysis of the deposited data

How the results depend on the processing

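Calls over all genes were 2659 higher and 1868 lower in mdx. With the replicate number as a block they were 1163 and 860, with 1 member higher. Same-numbered libraries did not deviate together (correlations of −0.014 and −0.017). With so few wild-type libraries this check rests on a single contrast and cannot exclude a shared batch. The labels name no pairing, and none was used in the main fit. Without trend and robust moderation 1150 genes were lower, and 0 members were called higher and 6 lower by limma (4 and 17 at an unadjusted p under 0.05). With 1 library left out, 1450 to 3308 genes were higher and 1112 to 1853 lower. Members called numbered 0 to 8 higher and 11 to 17 lower, with a median log2 fold change of −0.53 to −0.25. Where a single wild-type library remained, it was assumed to vary like the mdx libraries. More members were called higher with a pseudocount of 10 (5), the stricter filter of 50 (5), equal library totals (5) and quantile normalization (11). The median of −0.40 moved to −0.21 with equal totals and −0.22 after quantile normalization.

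Of the 73 tested members, 25 changed sign under at least 1 of the 14 alternatives, among them 1 of the 20 called members (Hspa8, after quantile normalization). Equal totals turned 7 members, quantile normalization 5 and length and GC correction 15, which include Dnajc5, Dnajc8, Dnajc9, Dnajc11, Dnajc13 and Dnajc19. Of the members chosen by rule, 8 turned. With equal totals Dnajc10 was at 0.08 and Hsp90ab1 at 0.18. Quantile normalization gave 1.05 for Hsp90ab1, 0.83 for Hspa5, 0.01 for Hspa8 and 0.65 for Hsph1. Length and GC correction gave 0.12 for Dnajc10, 0.13 for Hsp90ab1, −0.32 for Hspa1a, 0.08 for Hspa5, −0.16 for Hspb1 and 0.05 for Hspe1. The block gave −0.12 for Hspb1, and subtraction of the snoRNAs gave 1.94 for Hspa8. With single libraries left out, Dnajc10 ranged between −0.36 (without wild type 2) and 0.14 (without wild type 1), Hsp90ab1 between −0.23 and 0.22 and Hspa5 between −0.43 and 0.04, with the same libraries. Hsp90ab1 was also at 0.00 and 0.04 without mdx 1 or 2. Hspb1 ranged between −0.12 (without mdx 3) and 0.48 (without mdx 2), with −0.06 without wild type 2. The cause was not tested. Low values limit Hspb2, Hspb6, Hspb7 and Hspb8.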
